A study of Homo sapiens with 4 samples.

Results

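The 40 genes described here encode the autophagy machinery and its cargo receptors, in SKOV3 cells cultured on polymer X or on a tissue culture plate (TCP). They were listed by gene symbol, and the rule uses no measured value, although earlier results of these data were known when the list was made. All 40 were found among the 19475 gene symbols of the expression table, and where a gene had several transcripts the one of highest mean stood for it. RNA-seq had been performed on 4 libraries of SKOV3, a long-established line of human ovarian cancer cells. There were 2 libraries of cells on TCP, labelled day 0, and 2 libraries of the tumor spheroids that formed on polymer X, a polymer thin film coated on the plate, labelled day 8. No gene was targeted and no agent was added in any of these groups. In the study's methods the spheroids were dissociated with accutase every 4 days, which limits the age of any spheroid in the polymer X group. The methods give fetal bovine serum for SKOV3 maintenance and serum replacement for spheroids, while the labels give the serum replacement protocol for every library, so it is uncertain in which medium the TCP cells grew. Substrate, culture time, spheroid growth and possibly medium changed together, and their parts in any difference cannot be told apart.

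Expression was measured as FPKM, the sequenced tags on the exons of a transcript scaled to its length and to the total tags of the library. Depth was 38403000 to 44916000 tags per library. Replicates correlated at 0.997 to 0.998 across tested genes, against 0.854 to 0.862 between TCP and polymer X. The labels do not say that replicates came from separate cultures, so p-values measure only the spread between these libraries. The epithelial keratin genes KRT8 and KRT18 were at 89.3 FPKM or more in every library, and ERBB2, which is amplified in SKOV3, was at 198 to 913 FPKM. The other epithelial markers were lower, with KRT7 at 4.04 to 8.33, KRT19 at 0.338 to 0.734 and EPCAM at 0.104 to 1.39 FPKM. KRT7, KRT8 and KRT18 fell on polymer X, by 0.76, 0.87 and 0.44 on the log2 scale, while ERBB2 and EPCAM rose. The test needed at least 1 FPKM in 2 libraries, which EPCAM reached only on polymer X, so its fall could not have been called. KRT19 was not tested. The summed FPKM of 5 leukocyte markers was 0.213 and 0.113 on TCP and 0.930 and 0.987 on polymer X. That of 4 endothelial markers was 0.485 and 0.457 on TCP and 0.832 and 0.599 on polymer X. No gene of either set was tested. The sum of 5 fibroblast markers was 16.9 and 17.4 on TCP and 57.3 and 52.5 on polymer X, and its part in the results was not tested. Within it COL1A2 and DCN rose and COL1A1 fell, while PDGFRA and PDGFRB stayed at 0.291 FPKM or less in all libraries and were not tested. DCN, like EPCAM, entered the test only through the polymer X libraries. In bulk RNA, fewer cells of a type and less RNA per cell cannot be told apart.

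Macroautophagy encloses cytoplasm in a double membrane, the autophagosome, and delivers it to the lysosome. The ULK1 kinase complex starts the process, a class III phosphatidylinositol 3-kinase marks the forming membrane, and WIPI, ATG2 and ATG9 proteins bring lipid to it. Conjugation enzymes then attach the ubiquitin-like ATG8 proteins, of the LC3 and GABARAP subfamilies, to that membrane. Receptors such as SQSTM1 hold cargo on one side and ATG8 proteins on the other. Because the proteins are themselves consumed or modified during autophagy, mRNA levels are not a measure of autophagic flux, which was not measured in these libraries.

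Of the 40 genes, 39 passed the filter of at least 1 FPKM in at least 2 libraries and were tested with limma on log2(FPKM + 1), with Benjamini-Hochberg adjustment over all 11964 tested genes. The exception was MAP1LC3A. A gene is said to have risen or fallen on polymer X where its adjusted p was under 0.05. By this criterion 17 of the 39 genes rose, or 43.6%, and 10 fell, or 25.6%, while 12 did not pass. Among all tested genes 37.4% rose and 43.6% fell. Most tested genes therefore passed this criterion, and the share of autophagy genes that passed in either direction, 69.2%, was below the 81.0% of all tested genes. With a log2 fold change of at least 1 also required, only GABARAPL1 and WIPI1 passed upward, or 5.13% of the 39 against a background of 10.7%. No autophagy gene passed downward at that size, where the background was 9.45%. Their median log2 fold change was 0.09 and that of all tested genes was -0.06. Without regard to sign the medians were 0.54 and 0.51. Both polymer X libraries were above both TCP libraries for 19 of the 39 genes and below them for 12. Among all tested genes, 41.9% were above in this way, 48.4% below, and 90.4% did not overlap in either direction.

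**Figure D1:**
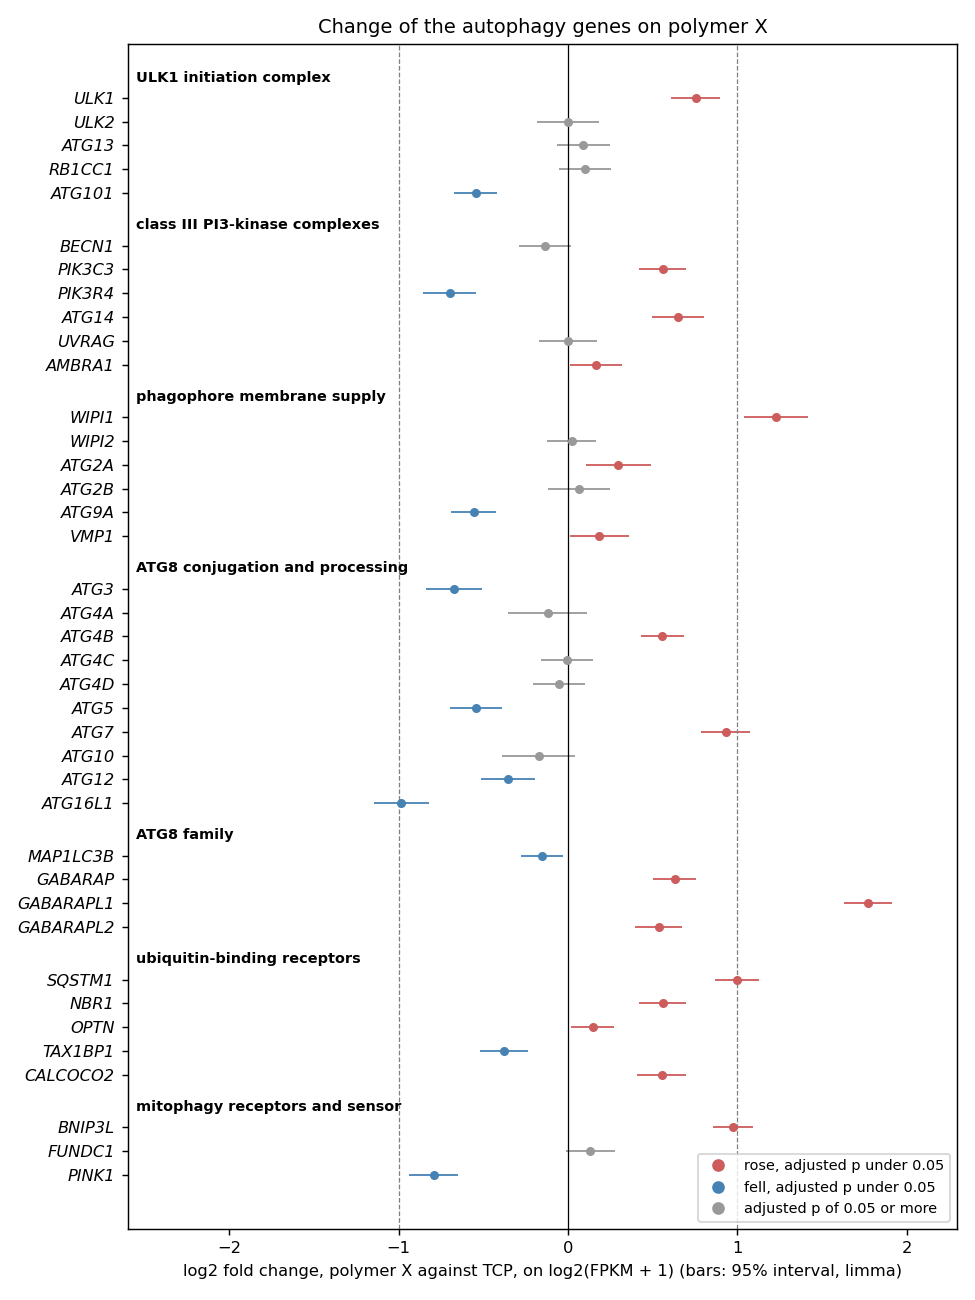
The log2 fold change of each of the 39 tested autophagy genes on the log2(FPKM + 1) scale, polymer X against TCP, with 95% confidence intervals as bars and genes ordered by role. GABARAPL1 at 1.77 and WIPI1 at 1.23 lay beyond 1, and ATG16L1 at -0.98 was the lowest.

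**Figure D2:**
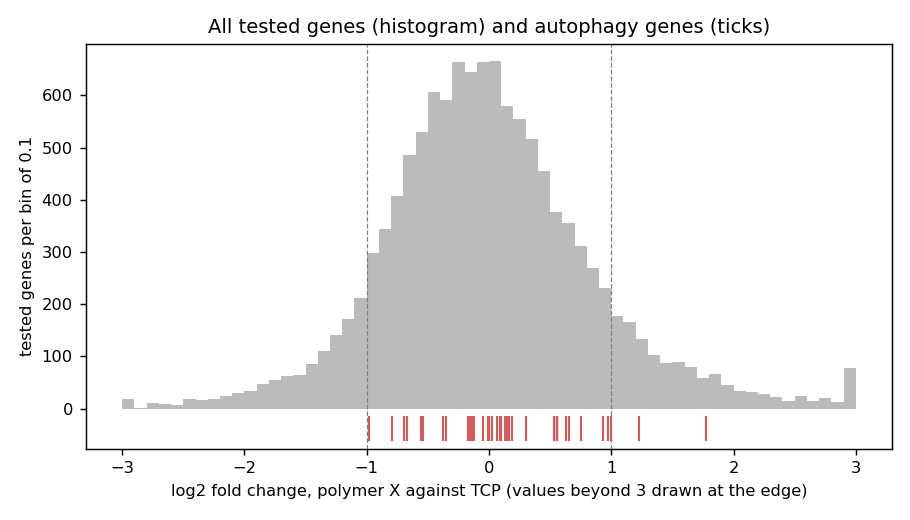
The distribution of log2 fold changes (log2(FPKM + 1) scale) of all 11964 tested genes with that of the 39 autophagy genes. The autophagy genes spanned -0.98 to 1.77, and all tested genes spanned -6.16 to 6.71.

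In the following, values are FPKM in the order TCP replicate 1, TCP replicate 2, polymer X replicate 1 and polymer X replicate 2. With 2 libraries per group, the smallest two-sided p of an exact permutation test is 0.333, and the adjusted p values come from limma, which pools information on the spread from all genes. Where a library is left out, its group keeps 1 library. A higher adjusted p there can reflect fewer libraries as well as a changed value. Fold changes are log2 differences on the log2(FPKM + 1) scale, which shrinks the change of genes at low FPKM. The highest mean FPKM over the 4 libraries were those of SQSTM1 at 180.5, GABARAP at 95.3, VMP1 at 93.0 and PINK1 at 64.1. The library ranges of the neighbours GABARAP and VMP1 overlapped. The lowest were those of ULK2 at 2.18, ATG4A at 1.08 and MAP1LC3A at 0.055.

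**Figure D3:**
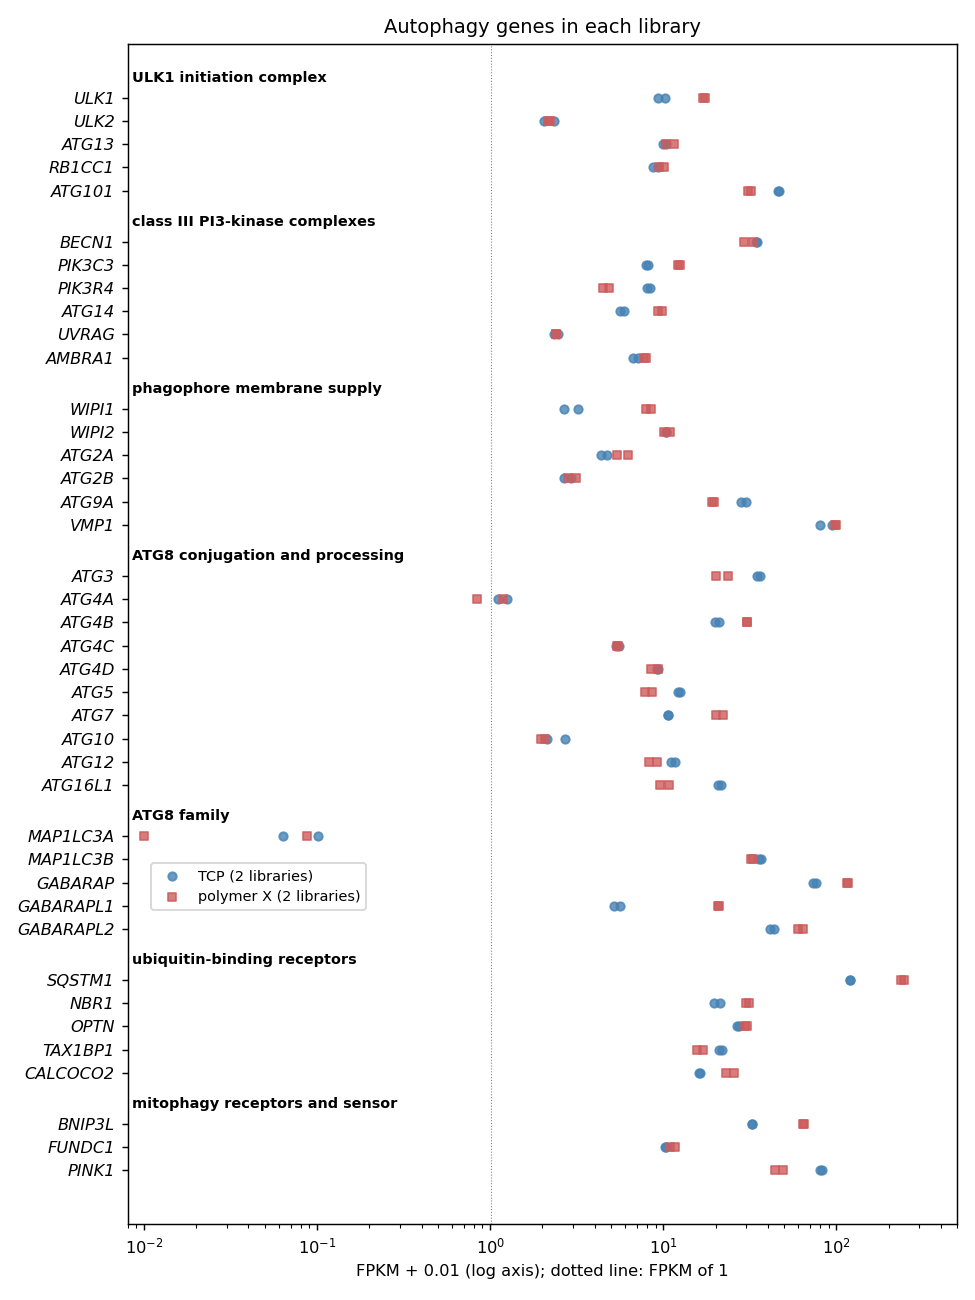
FPKM plus 0.01, on a log axis, of the 40 autophagy genes in each of the 2 TCP and 2 polymer X libraries, grouped by role. Replicates of the tested genes lay close together, and among these genes the groups were farthest apart at GABARAPL1 (5.19 to 5.57 on TCP, 20.7 to 20.9 on polymer X). For MAP1LC3A, which was not tested, the polymer X replicates at 0.077 and 0 lay far apart on this axis.

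The ATG8 family had the largest rise of any of the 40 genes. GABARAPL1 (NM_031412, hg19 chromosome 12, 10365489 to 10375724, plus strand) encodes an ATG8 protein of the GABARAP subfamily. It was at 5.57, 5.19, 20.7 and 20.9 FPKM. Both polymer X libraries were far above both TCP libraries, and the replicates of each group were nearly equal. The mean rose from 5.38 ± 0.267 (SD, n = 2) to 20.8 ± 0.101 (SD, n = 2), a ratio of 3.87. The log2 fold change was 1.77 (SE 0.06, limma adjusted p = 1.3e-08), and it was between 1.73 and 1.93 in every alternative processing run for it.

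GABARAP, the subfamily's namesake, was at 76.4, 72.7, 115 and 117 FPKM. It rose by 0.63 on the log2 scale (SE 0.06, limma adjusted p = 4.8e-06). GABARAPL2, which also acts in Golgi transport, was at 43.7, 41.2, 64.1 and 59.9 FPKM and rose by 0.54 (limma adjusted p = 2.6e-05). All 3 GABARAP subfamily genes were thus higher in both polymer X libraries than in either TCP library, as were 41.9% of all tested genes.

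MAP1LC3B, which encodes the LC3 protein most used as an autophagosome marker, was at 35.7, 36.8, 32.0 and 32.9 FPKM. Its groups did not overlap, and it fell by 0.15 on the log2 scale (limma adjusted p = 0.026), but the log2 fold change was 0.12 (adjusted p = 0.072) after quantile normalization and -0.11 (adjusted p = 0.072) after scaling to a common median. Over all alternatives its adjusted p ranged from 0.016 to 0.16, and it was above 0.05 without TCP replicate 1 (0.072), TCP replicate 2 (0.16) or polymer X replicate 1 (0.067). In GENCODE 29 its coding sequence shares 376 of 378 bases with that of MAP1LC3B2, so the counting could not fully separate these copies. MAP1LC3B2 was at 22.3, 22.1, 17.2 and 19.6 FPKM and fell by 0.26 (limma adjusted p = 0.0064). MAP1LC3A, the LC3 gene of neurons and muscle among other tissues, held 2, 4, 3 and 0 tags, near the floor of 3 tags below which a value was treated as not detectable. At this depth no difference in MAP1LC3A was detectable.

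The summed FPKM of the 5 ATG8 genes was 161 and 156 on TCP and 232 and 230.4 on polymer X. GABARAPL1 made up 3.45% and 3.33% of that sum on TCP and 8.93% and 9.06% on polymer X. MAP1LC3B made up 22.1% and 23.6% on TCP and 13.8% and 14.3% on polymer X. The share of the 3 GABARAP genes moved from 77.9% and 76.4% to 86.2% and 85.7%, and GABARAP itself remained the most abundant ATG8 mRNA in all 4 libraries. These shares compare values per length within a library and were not tested. The sum leaves out MAP1LC3C and MAP1LC3B2, the latter at 17.2 to 22.3 FPKM, and adding them would lower the GABARAP shares in all 4 libraries.

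WIPI1 was the other gene that rose beyond a log2 fold change of 1. It encodes a WD-repeat protein that binds the phosphatidylinositol 3-phosphate of the forming autophagosome. WIPI1 (NM_001320772, hg19 chromosome 17, 66417422 to 66453665, minus strand) was at 3.20, 2.66, 7.95 and 8.45 FPKM. The lower polymer X library was above the higher TCP library by more than the spread within either group. Its mean rose from 2.93 ± 0.380 (SD, n = 2) to 8.20 ± 0.354 (SD, n = 2), a ratio of 2.80, with a log2 fold change of 1.23 (SE 0.08, limma adjusted p = 8.6e-07). Strand was not used in the counting, and in GENCODE 29 (GRCh38) 539 of the 1890 exon bases of WIPI1 are shared with ARSG on the other strand. ARSG was at 0.272, 0.150, 5.63 and 5.29 FPKM, so it moved in the same direction, and tags of the shared bases cannot be assigned to either gene.

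The sequences upstream of these genes are shown because they were the 2 past a log2 fold change of 1, and those of ATG3 and ATG14 because they alone held a CLEAR core. RefSeq windows of 250 bases before the annotated start (GRCh38.p14) were at hand for 34 of the 40 genes and for 35116 starts in all. Both strands were searched for the E-box CACGTG, the core TCACGTG of the CLEAR element that TFEB recognises, and the cores ACGTG and GCGTG of the hypoxia response element. The first of these lies within the second and holds the third, so their matches overlap. The GC box GGGCGG was added after the sequences were seen. The window of WIPI1 (chr17:68457497-68457746, minus strand) is shown with its GC boxes in capitals on either strand. For GABARAPL1, the stretch upstream of its first GENCODE 29 exon (chr12:10212627-10212804, plus strand) is shown, which holds none of the 5 motifs. Its full window of 250 bases held 2 GC boxes, both outside the stretch shown. For ATG3 (chr3:112561965-112561991, minus strand) and ATG14 (chr14:55411835-55411861, minus strand), capitals mark the CLEAR core on either strand with 10 bases to each side.
WIPI1: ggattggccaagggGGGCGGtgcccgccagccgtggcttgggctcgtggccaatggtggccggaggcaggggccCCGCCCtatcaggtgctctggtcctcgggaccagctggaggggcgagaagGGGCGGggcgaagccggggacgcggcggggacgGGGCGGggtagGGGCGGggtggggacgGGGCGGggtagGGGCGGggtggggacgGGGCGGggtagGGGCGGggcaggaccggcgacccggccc
GABARAPL1: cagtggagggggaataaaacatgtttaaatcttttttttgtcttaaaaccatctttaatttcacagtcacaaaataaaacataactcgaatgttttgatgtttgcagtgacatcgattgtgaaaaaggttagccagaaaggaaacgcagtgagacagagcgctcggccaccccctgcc
ATG3: ctttctcacgTCACGTGccgggagagt
ATG14: aacaaaatccCACGTGActggctctcc

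The WIPI1 window had 9 GC boxes and a G+C content of 79.6%, while the stretch of GABARAPL1 had a G+C content of 39.9%. Neither window held an E-box, a CLEAR core or a hypoxia core. TCACGTG was in the windows of 2 of the 34 genes, ATG3 and ATG14, and in 3.31% of all windows. The E-box was in the same 2 genes and in 6.34% of all windows. These genes moved in opposite directions, as given below. ACGTG was in windows of 12 of the 34 genes and 18.5% of all windows, GCGTG in 17 genes and 32.2% of windows, and GGGCGG in 24 genes and 42.6% of windows. A gene with several starts counted as holding a motif if any of its windows did, while the shares of all windows count each window singly. The gene counts and the window shares are therefore in different units, and no excess can be read from them. A match describes letters in the window and not binding, and a missing match says nothing about a factor.

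Of the other genes that supply lipid and membrane to the phagophore, 2 rose, ATG9A fell and 2 did not pass. With WIPI1 included, 66.7% of this group passed, beside 81.0% of all tested genes. ATG9A, the lipid scramblase carried on small vesicles, was at 28.1, 29.8, 19.6 and 19.1 FPKM and fell by 0.56 (limma adjusted p = 1.6e-05). ATG2A, a lipid transfer protein, was at 4.34, 4.71, 5.36 and 6.26 FPKM with a log2 fold change of 0.30 (limma adjusted p = 0.0086). VMP1, a scramblase of the endoplasmic reticulum, was at 94.3, 79.8, 98.6 and 99.2 FPKM with a log2 fold change of 0.19 (limma adjusted p = 0.0485).

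The groups did not overlap for ATG9A, ATG2A or VMP1, nor did they for 90.4% of all tested genes. The size of the VMP1 change depended on the TCP library used. Its log2 fold change was 0.068 without TCP replicate 2 and 0.31 without TCP replicate 1. It was 0.19 and 0.18 without polymer X replicates 1 and 2. For ATG2A it was 0.25 without TCP replicate 1 and 0.20 without polymer X replicate 2. The limma adjusted p of ATG2A ranged from 0.0012 to 0.10 over all alternatives. That of VMP1 was 1.1e-04 after quantile normalization and 0.26 with no filter on low values. WIPI2, the paralog of WIPI1 that recruits ATG16L1, was at 10.3, 10.3, 10.1 and 10.9 FPKM, with a log2 fold change of 0.02. ATG2B, the paralog of ATG2A, was at 2.66, 2.91, 3.12 and 2.80 FPKM, with a log2 fold change of 0.06. In both, the polymer X values overlapped the TCP values.

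Upstream of these steps, the ULK1 complex had 1 gene that rose, 1 that fell and 3 that did not pass. The share that passed, 40%, was below the 81.0% of all tested genes. ULK1, the kinase that starts autophagy, was at 9.34, 10.2, 17.4 and 16.9 FPKM. It rose by 0.75 on the log2 scale (SE 0.06, limma adjusted p = 3.8e-06), with a ratio of means of 1.76. Its paralog ULK2 was at 2.04, 2.31, 2.20 and 2.15 FPKM, with a log2 fold change of 0.00 and a 95% interval of -0.18 to 0.18. The ratio of ULK1 to ULK2 FPKM was therefore 4.58 and 4.40 on TCP and 7.90 and 7.83 on polymer X. ATG101, the small subunit that stabilises ATG13, was at 46.5, 46.0, 30.7 and 32.2 FPKM and fell by 0.54 (limma adjusted p = 1.2e-05). ATG13, the adaptor subunit, was at 10.3, 9.94, 11.4 and 10.3 FPKM, with a log2 fold change of 0.09. RB1CC1, the scaffold also called FIP200, was at 9.25, 8.72, 10.1 and 9.38 FPKM, with a log2 fold change of 0.10. Neither ATG13 (adjusted p = 0.25) nor RB1CC1 (adjusted p = 0.19) passed the limma test.

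The class III PI3-kinase genes moved in different directions. PIK3C3, the catalytic subunit VPS34, was at 8.18, 7.95, 12.5 and 12.2 FPKM and rose by 0.56 (limma adjusted p = 2.2e-05). PIK3R4, the VPS15 subunit that holds VPS34, was at 8.03, 8.30, 4.84 and 4.46 FPKM and fell by 0.70 (limma adjusted p = 1.1e-05). In TCP libraries these partners were at nearly equal FPKM, and in polymer X libraries PIK3C3 was above PIK3R4. ATG14, the subunit that directs the complex to autophagy, was at 5.87, 5.58, 9.29 and 9.83 FPKM and rose by 0.65 (limma adjusted p = 1.4e-05). UVRAG, the subunit of the endosomal form, was at 2.34, 2.45, 2.39 and 2.39 FPKM, with a log2 fold change of -0.00066. ATG14 was thus higher in both polymer X libraries, as were 41.9% of all tested genes. UVRAG lay within the TCP range, although its log2 fold change was -0.26 after quantile normalization. Of the 6 genes of this group 3 rose, 1 fell and 2 did not pass. The share that passed, 66.7%, was below the 81.0% of all tested genes.

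BECN1, the Beclin 1 scaffold shared by both forms, was at 34.1, 34.5, 33.1 and 29.3 FPKM, with a log2 fold change of -0.14. It did not pass (limma adjusted p = 0.088), although it did without polymer X replicate 1 (adjusted p = 0.011) and with the replicate number as a block (adjusted p = 0.042), within a range of 0.011 to 0.44. It was 0.13 after quantile normalization. AMBRA1, a ubiquitin ligase adaptor that binds Beclin 1, was at 7.11, 6.65, 7.96 and 7.73 FPKM, with a log2 fold change of 0.17 (limma adjusted p = 0.043). Leaving out any library took AMBRA1 above the threshold, with adjusted p of 0.063 and 0.25 without TCP replicates 1 and 2, and 0.13 and 0.068 without polymer X replicates 1 and 2. The range over all its alternatives was 0.017 to 0.25.

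**Figure D4:**
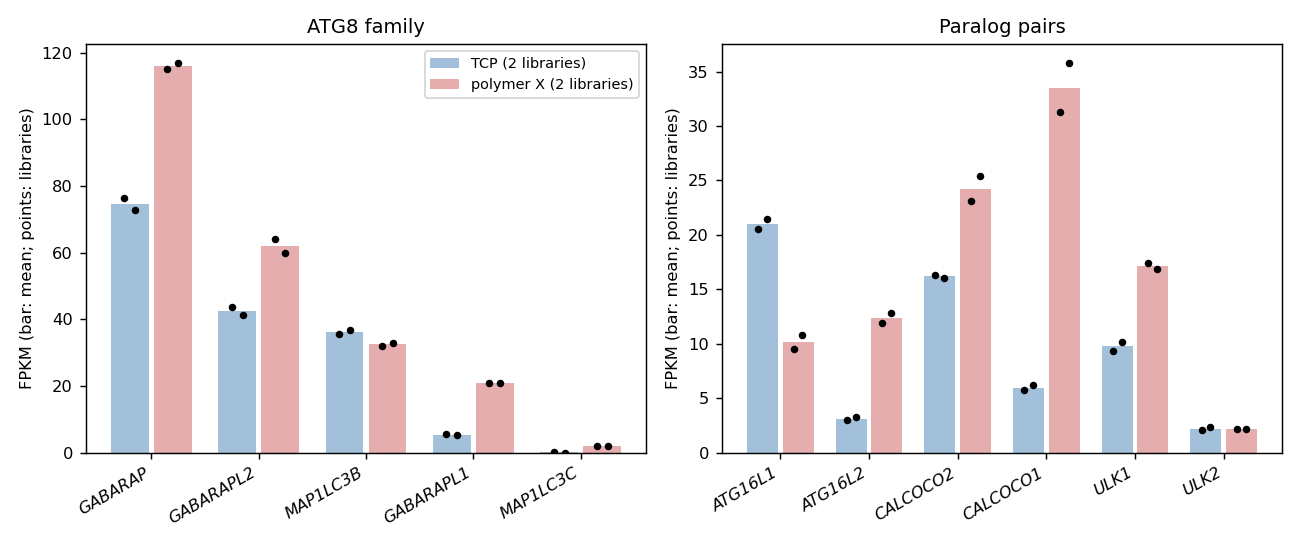
FPKM of ATG8 family genes (left) and of paralog pairs (right) on linear axes from 0, with bars for the mean of the 2 TCP or 2 polymer X libraries and points for the libraries. ATG16L1 was above ATG16L2 in both TCP libraries and below it in both polymer X libraries, the same held for CALCOCO2 and CALCOCO1, and ULK1 rose while the ULK2 values of both groups overlapped.

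Of the 10 enzymes and cofactors that conjugate and process ATG8 proteins, 4 fell, or 40%, close to the 43.6% of all tested genes. Another 2 rose, ATG4B and ATG7, of which ATG7 has a direction that cannot be read, and 4 did not pass. The median log2 fold change was -0.15. ATG16L1 (NM_198890, hg19 chromosome 2, 234160217 to 234204320, plus strand) determines where ATG8 proteins are attached. It was at 20.6, 21.5, 9.49 and 10.8 FPKM. Both polymer X libraries were far below both TCP libraries, and the TCP mean was 2.07 times the polymer X mean. It fell by 0.98 on the log2 scale (SE 0.07, limma adjusted p = 1.3e-06). This was just short of 1, and it was beyond 1 when TCP replicate 1 or polymer X replicate 2 was left out.

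The partners of ATG16L1 in the conjugating complex fell as well. ATG5 was at 12.5, 12.2, 8.57 and 7.80 FPKM and fell by 0.54 (limma adjusted p = 5.1e-05). ATG12, the ubiquitin-like protein joined to ATG5, was at 11.1, 11.6, 8.21 and 9.14 FPKM and fell by 0.35 (limma adjusted p = 0.0012). ATG3, the E2-like enzyme that hands ATG8 proteins to the lipid, was at 36.0, 34.6, 23.4 and 20.2 FPKM and fell by 0.67 (limma adjusted p = 2.0e-05). For each of ATG5, ATG12 and ATG3, both polymer X libraries were below both TCP libraries, as they were for 48.4% of all tested genes. ATG10, the E2-like enzyme for ATG12, was at 2.12, 2.68, 1.95 and 2.07 FPKM, with a log2 fold change of -0.17 (limma adjusted p = 0.12). Its groups did not overlap, yet the TCP replicates differed from each other by more than their gap to polymer X. Without TCP replicate 1 the adjusted p of ATG10 was 0.029, within a range of 0.0024 to 0.67.

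ATG7, the E1-like enzyme at the head of both conjugation routes, had a value that depended on the transcript read. By the transcript with the highest mean (NM_001144912, hg19 chromosome 3, 11314010 to 11599139, plus strand) it was at 10.6, 10.6, 22.1 and 20.2 FPKM. This was a log2 fold change of 0.93 (SE 0.06, limma adjusted p = 8.4e-07), and the 9 transcripts with this span, itself included, gave 0.88 to 0.93. The shorter NM_001349238, which is 2344 bases shorter, was at 11.2, 10.1, 9.07 and 8.59 FPKM, with a log2 fold change of -0.24 (limma adjusted p = 0.011). In GENCODE 29 (GRCh38), 1596 of the 4959 exon bases of ATG7 are shared with VGLL4 on the other strand. VGLL4, a transcriptional cofactor outside autophagy, was at 14.3, 14.0, 45.9 and 43.7 FPKM. Since strand was not used, the direction of ATG7 cannot be read from these values. With the shorter transcript in its place, 16 of the 39 genes rose and 11 fell.

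Among the ATG4 proteases, which trim ATG8 proteins before conjugation and free them afterwards, only ATG4B passed. It was at 21.0, 19.8, 30.5 and 30.6 FPKM and rose by 0.56 (limma adjusted p = 1.3e-05). ATG4C was at 5.52, 5.33, 5.39 and 5.42 FPKM, with a log2 fold change of -0.0040. ATG4D was at 9.32, 9.16, 8.48 and 9.29 FPKM, with a log2 fold change of -0.05. In both, the groups overlapped. ATG4A, the protease that prefers GABARAP proteins, was at 1.23, 1.09, 1.17 and 0.823 FPKM, with a log2 fold change of -0.12 (limma adjusted p = 0.30). At 77 tags in its lowest library it was the most sparsely counted of the tested genes, and its log2 fold change was 0.0071 without polymer X replicate 2 and -0.25 (adjusted p = 0.046) without polymer X replicate 1, with adjusted p of 6.1e-04 to 0.95 over all alternatives. The ratio of ATG4B to ATG4A FPKM was 17.0 and 18.1 on TCP and 26.0 and 37.1 on polymer X.

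All 5 ubiquitin-binding receptors passed the test, 4 upward and TAX1BP1 downward, with a median log2 fold change of 0.55, where 81.0% of all tested genes passed in either direction. SQSTM1 (NM_003900, hg19 chromosome 5, 179247842 to 179265077, plus strand) encodes p62, which binds ubiquitin chains and LC3 and is itself degraded by autophagy. It was at 120.4, 119.6, 245 and 237 FPKM. The TCP libraries were nearly equal and both polymer X libraries far above them, with a ratio of means of 2.01. The log2 fold change was 1.00 (SE 0.06, limma adjusted p = 2.5e-07), which before rounding lay just below the threshold of 1. SQSTM1 passed that threshold with a pseudocount of 0.1, with quantile or median scaling, with summed or averaged transcripts, and when TCP replicate 1 or polymer X replicate 2 was left out. In GENCODE 29, 1384 of its 3476 exon bases are shared with MRNIP on the other strand, which was at 12.3, 12.2, 27.7 and 25.8 FPKM.

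NBR1, a receptor that works with SQSTM1, was at 19.6, 21.3, 31.0 and 30.1 FPKM and rose by 0.56 (limma adjusted p = 2.1e-05). CALCOCO2, or NDP52, a receptor for bacteria and damaged mitochondria, was at 16.3, 16.1, 23.1 and 25.4 FPKM and rose by 0.55 (limma adjusted p = 3.0e-05). TAX1BP1, which is structurally related to CALCOCO2, was at 21.8, 21.0, 16.9 and 15.5 FPKM and fell by 0.38 (limma adjusted p = 3.9e-04). These paralogs thus moved apart, with TAX1BP1 above CALCOCO2 in both TCP libraries and below it in both polymer X libraries. OPTN, or optineurin, a mitophagy receptor activated by TBK1, was at 26.5, 27.4, 30.4 and 29.5 FPKM, with a log2 fold change of 0.15 (limma adjusted p = 0.034). Its adjusted p was 0.20 without TCP replicate 1, 0.084 without TCP replicate 2 and 0.091 without polymer X replicate 1, within a range of 1.1e-04 to 0.20.

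The 3 genes of mitophagy, the removal of mitochondria, differed in direction. BNIP3L (NM_004331, hg19 chromosome 8, 26240523 to 26270644, plus strand), also called NIX, is a receptor in the outer mitochondrial membrane and a known hypoxia target. It was at 32.3, 32.5, 65.2 and 63.9 FPKM. The replicates of each group were close together and the groups far apart. It rose by 0.97 on the log2 scale (SE 0.05, limma adjusted p = 1.9e-07), with a ratio of means of 2.00, and it passed 1 after quantile or median scaling and with summed transcripts. PINK1 (hg19 chromosome 1, 20959948 to 20978004, plus strand), the kinase that senses damaged mitochondria and recruits Parkin, was at 80.7, 82.2, 49.2 and 44.2 FPKM. Both polymer X libraries were below both TCP libraries, the TCP mean was 1.75 times the polymer X mean, and PINK1 fell by 0.79 (SE 0.06, limma adjusted p = 2.6e-06). FUNDC1, another receptor linked to hypoxia, was at 10.3, 10.1, 11.7 and 11.0 FPKM, with a log2 fold change of 0.13 (limma adjusted p = 0.077). The adjusted p of FUNDC1 was 0.0097 after quantile normalization, 0.021 after scaling to a common median and 0.0485 without polymer X replicate 2, within a range of 0.0097 to 0.25.

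For the 12 genes that did not pass, the 95% intervals of the log2 fold change had bounds between -0.39 and 0.28. For these genes a change larger than those bounds in either direction lay outside the interval, and a smaller one could not be told from 0. After quantile normalization 6 of the 12 passed, with log2 fold changes of -0.27 for ULK2, -0.26 for UVRAG, -0.60 for ATG4A, -0.45 for ATG10, 0.16 for ATG13 and 0.21 for FUNDC1. Of the 40 genes, 8 overlap a gene on the other strand. Beside ATG7, WIPI1 and SQSTM1, these are BECN1 (502 exon bases shared with CNTD1), ATG12 (378 with AP3S1), ATG4D (341 with KRI1), VMP1 (162 with PTRH2) and ATG3 (0 with SLC35A5), by GENCODE 29, so that tags of the shared bases are uncertain.

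The genes that surround this machinery were summarised from further lists of the pathway. In the list of nutrient and energy sensing, 13 of 22 tested genes rose, or 59.1%, 8 fell, or 36.4%, and 1 did not pass, beside 37.4% risen and 43.6% fallen among all tested genes. The median log2 fold change was 0.39. DDIT4, or REDD1, a stress-induced inhibitor of mTORC1, was at 82.2, 85.1, 415 and 397 FPKM and rose by 2.26 (SE 0.06, limma adjusted p = 2.9e-09). MTOR, the kinase that restrains ULK1 when nutrients are present, was at 12.9, 13.4, 6.10 and 5.29 FPKM and fell by 1.08 (SE 0.07, limma adjusted p = 9.5e-07). For DDIT4 and MTOR the groups were far apart relative to the replicate spread, in opposite directions.

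FLCN, a regulator of RagC and RagD GTPases at the lysosome, was at 5.25, 6.65, 16.7 and 17.9 FPKM and rose by 1.40 (limma adjusted p = 7.5e-07). RRAGD, which encodes RagD, was at 5.77, 6.12, 13.4 and 13.3 FPKM and rose by 1.05 (limma adjusted p = 4.0e-07). RRAGA, which encodes RagA, was named after its values were seen as the remaining gene past 1, at 26.5, 26.6, 55.1 and 54.5 FPKM and a log2 fold change of 1.02 (limma adjusted p = 1.4e-07). The other Rag genes RRAGB (0.68) and RRAGC (0.72) rose as well, so that all 4 Rag GTPase genes rose on polymer X, as did 37.4% of all tested genes. RHEB, the small GTPase that activates mTORC1, fell by 0.96 (limma adjusted p = 3.4e-07).

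Of 7 transcriptional regulators of autophagy genes, 4 rose and 2 fell, so that 85.7% passed beside 81.0% of all tested genes. FOXO1 was at 0.904, 0.819, 3.51 and 3.32 FPKM and rose by 1.25 (limma adjusted p = 5.4e-07). It reached the filter of 1 FPKM only through the polymer X libraries, so a fall of FOXO1 could not have been called. Its place among the 4 that rose carries the same limit. MITF was at 3.87, 3.62, 1.08 and 0.971 FPKM and fell by 1.23 (limma adjusted p = 6.1e-07). Its relative TFEB, a main regulator of lysosome and autophagy genes through the CLEAR element, rose by 0.69 from 3.81 and 4.46 to 7.37 and 7.15 FPKM, while the relative TFE3 had a log2 fold change of -0.10 (limma adjusted p = 0.16). Members of this transcription factor family therefore moved in different directions.

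In further core machinery, 4 of 10 tested genes rose and 4 fell, near the background of 81.0% passing, with a median log2 fold change of -0.04. ATG16L2, the paralog of ATG16L1, was at 2.95, 3.25, 11.9 and 12.9 FPKM and rose by 1.70 (SE 0.07, limma adjusted p = 4.6e-08). The ratio of ATG16L1 to ATG16L2 FPKM was 6.96 and 6.61 on TCP and 0.800 and 0.841 on polymer X, so that the more abundant of these mRNAs differed between the groups. MAP1LC3C, whose LC3 protein binds CALCOCO2, had 3 and 0 tags on TCP and 97 and 94 tags on polymer X. Against a floor of 3 tags per library, its polymer X level was at least 30.3-fold higher. MAP1LC3C is among the 4 that rose, but it reached the filter of 1 FPKM only through the polymer X libraries. A fall of this gene could therefore not have been called.

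Among other selective receptors, 9 of 16 tested genes rose and 3 fell, with a median log2 fold change of 0.25. The share that passed in either direction, 75.0%, was below the 81.0% of all tested genes. CALCOCO1, a receptor for the endoplasmic reticulum and the paralog of CALCOCO2, was at 5.71, 6.17, 31.3 and 35.8 FPKM and rose by 2.31 (SE 0.08, limma adjusted p = 8.7e-09). The ratio of CALCOCO2 to CALCOCO1 was 2.85 and 2.61 on TCP and 0.737 and 0.711 on polymer X. BNIP3, the paralog of BNIP3L, was at 56.9, 52.7, 85.9 and 88.2 FPKM and rose by 0.66 (limma adjusted p = 5.2e-06). BNIP3 remained above BNIP3L in every library, with a BNIP3L to BNIP3 ratio of 0.568 and 0.616 on TCP and 0.759 and 0.724 on polymer X.

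**Figure D5:**
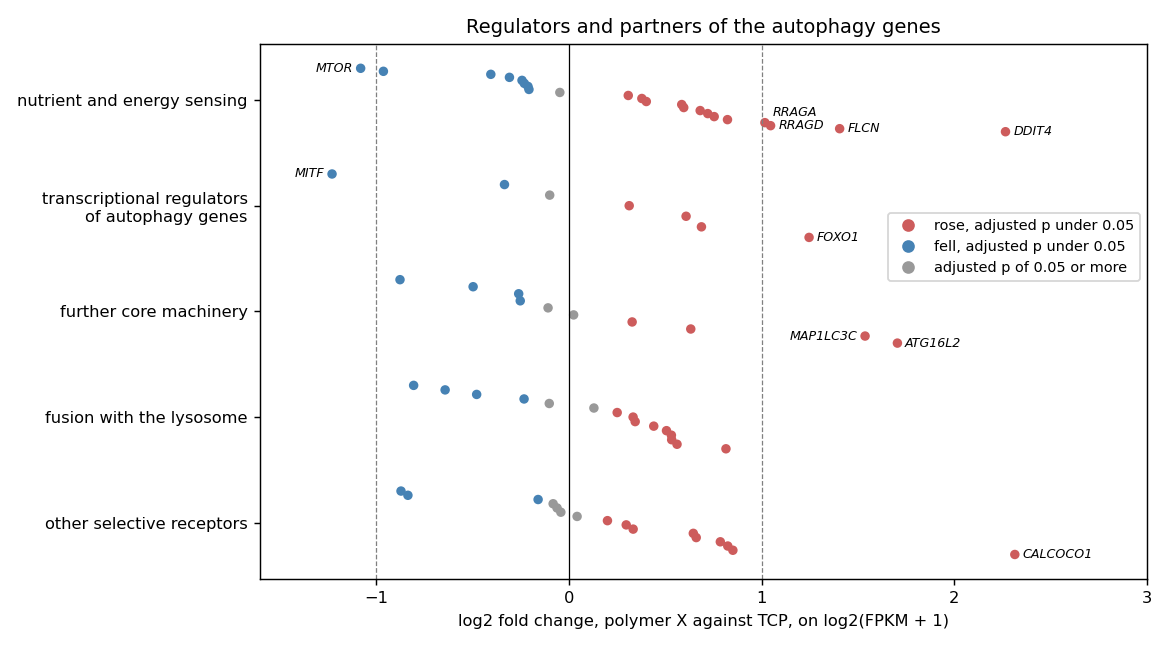
The log2 fold change, polymer X against TCP on the log2(FPKM + 1) scale, of tested genes in 5 lists of regulators and partners of the autophagy genes, each point a gene. Labelled genes lay beyond 1 in either direction, with DDIT4 at 2.26 and CALCOCO1 at 2.31 the highest and MITF at -1.23 the lowest.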

How the data were processed

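The authors deposited FPKM values of 4 RNA-seq libraries, computed with HOMER on hg19 for 50078 RefSeq transcripts from exon tags on both strands, and the submitters' processing notes also list STAR 2.4.0 and DESeq. Where a symbol had several transcripts, as 10500 did, the one of highest mean FPKM stood for it. Tags per library were recovered from the steps between low FPKM values, of which 100% lay within 0.1 of a whole number. Floors cover counting error only, and the 95% intervals are those of limma, from the spread between libraries. The test was limma 3.58.1 (R 4.3.3) with a trend of variance on mean, applied to log2(FPKM + 1) of genes that reached an FPKM of 1 in 2 or more libraries, with Benjamini-Hochberg adjustment and no replicate block. On simulated data the test called 184 of 200 genes of the 11964 that had been changed by 1.5 on the log2 scale, and 0 others. The simulated spread between libraries was a set value, not estimated from these libraries, and all other genes were left unchanged. In the real data 81.0% of tested genes passed the adjusted p criterion, so the simulation does not give the rate of false calls here. All 40 genes are named, with the called genes of each further list (at most 3 per direction, by size) and BNIP3. The genes and lists were chosen with earlier results of these data known, and other genes named were chosen after their values were seen. Exon overlaps came from GENCODE 29 on GRCh38 by gene name, since the deposited table gives no exon positions. Promoter sequences came from RefSeq (GRCh38.p14). Alternatives were a pseudocount of 0.1, no filter, a mean FPKM minimum of 5, quantile and median scaling, summed or averaged transcripts, no trend, no fold minimum, the replicate block, each library left out, and, added after seeing the data, the shorter ATG7 transcript. Analyses used Python 3.11.15, pandas 2.3.3 and matplotlib 3.10.9.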

Additional observations from a re-analysis of the deposited data

How the results depend on the processing

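GABARAPL1 and WIPI1 kept their direction and stayed past a log2 fold change of 1 in every alternative. No alternative left out the exon bases that WIPI1 shares with ARSG, so the effect of that overlap on WIPI1 was not tested. The number of autophagy genes past 1 upward was 2, against 5 after quantile normalization, 4 after scaling to a common median, 4 with summed transcripts, 17 without a fold minimum, and 2 to 3 with a library left out. Downward it was 0, against 1 (ATG16L1) with a pseudocount of 0.1, summed transcripts or averaged transcripts, 10 without a fold minimum, and 0 to 1 with a library left out. The median log2 fold change was 0.09, against 0.14 with a mean FPKM of at least 5, 0.15 after quantile normalization and 0.056 to 0.15 with a library left out. Among all genes, 1285 were past 1 upward and 1131 downward, against 702 upward with a mean FPKM of at least 5, and 4477 upward and 5212 downward without a fold minimum. Of 541 alternative values of single genes, 491 kept their direction and side of the threshold.

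Signs turned in 15 values, of 10 genes. After quantile normalization the log2 fold change was -0.27 for ULK2, 0.13 for BECN1, -0.15 for ATG2B and 0.12 for MAP1LC3B. After scaling to a common median it was 0.029 for UVRAG and 0.032 for ATG4C. With a library left out it ranged from -0.060 to 0.064 for ULK2, -0.024 to 0.023 for UVRAG, -0.026 to 0.069 for WIPI2, -0.25 to 0.0071 for ATG4A, -0.025 to 0.017 for ATG4C and -0.11 to 0.0066 for ATG4D. It was -0.24 for ATG7 by its shorter transcript. The causes of the other turns were not tested.

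With the replicate number as a block, 2 autophagy genes were past 1 upward and 0 downward, 17 rose and 11 fell, and BECN1 was the 1 call that changed. Deviations of same-numbered libraries correlated at 0.0927, so the numbers were not taken as pairs. Depth limits MAP1LC3A, at 0 to 4 tags, and 2 libraries per group limit every result.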

Other observations

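The steps after the autophagosome closes, its tethering to and fusion with the lysosome, were measured in 15 tested genes of a further list, of which 9 rose, 4 fell and 2 did not pass. The share that passed, 86.7%, was near the 81.0% of all tested genes. Log2 fold changes in the list were -0.80 to 0.82, with a median of 0.33. These genes were named after their values were seen. STX17, the SNARE protein of the closed autophagosome, was at 5.78 and 5.72 FPKM on TCP and 9.32 and 8.61 on polymer X and rose by 0.56 (limma adjusted p = 4.3e-05). VAMP8, its partner on the lysosome, was at 18.3 and 16.7 FPKM on TCP and 26.1 and 25.4 on polymer X and rose by 0.53 (limma adjusted p = 3.3e-05). YKT6, a SNARE protein of a parallel fusion route, was at 36.2 and 34.9 FPKM on TCP and 20.3 and 19.5 on polymer X and fell by 0.80 (limma adjusted p = 1.0e-06). SNAP29, which completes the complex of STX17 and VAMP8, was at 18.4 and 18.1 FPKM on TCP and 16.2 and 14.6 on polymer X and fell by 0.23 (limma adjusted p = 0.0090). The SNARE genes of the STX17 route thus did not move in a single direction.

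PLEKHM1, an adaptor between RAB7 and the tethering complex HOPS, was at 1.40 and 1.35 FPKM on TCP and 2.91 and 3.47 on polymer X and rose by 0.82 (limma adjusted p = 2.0e-05). EPG5, a tether that binds RAB7 and LC3, was at 4.91 and 5.36 FPKM on TCP and 2.94 and 2.92 on polymer X and fell by 0.64 (limma adjusted p = 3.1e-05). Of the HOPS subunits, VPS11, VPS16, VPS39 and VPS41 rose by 0.33 to 0.51, VPS33A fell by 0.48, and VPS18 had a log2 fold change of 0.13 (limma adjusted p = 0.089).

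Receptors for the endoplasmic reticulum and for ferritin also differed between the groups, and were likewise named after their values were seen. TEX264 was at 14.3 and 14.2 FPKM on TCP and 26.7 and 26.3 on polymer X and rose by 0.85 (limma adjusted p = 6.4e-07). RETREG1 rose by 0.82 (limma adjusted p = 4.5e-06) and CCPG1 by 0.79 (limma adjusted p = 3.7e-06), while RTN3 fell by 0.16 (limma adjusted p = 0.027) and SEC62 had a log2 fold change of -0.04. NCOA4, the ferritin receptor, was at 37.3 and 38.1 FPKM on TCP and 21.9 and 19.5 on polymer X and fell by 0.83 (limma adjusted p = 2.2e-06).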
